A study of Mus musculus with 16 samples.

Results

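Striated muscle genes were followed across 16 mouse aorta libraries. The 10 genes were Myh6, Myl7, Nppa, Tnnt2, Actc1, Ryr2, Adprhl1, Ckm, Tcap and Acta1, out of 54532 genes in the deposited tables. They were chosen by their measured values in these same libraries, because they differed strongly between the nephrectomy groups and between single libraries. Their levels and fold changes are therefore given as a description, without a test.

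Total RNA of the aorta was sequenced, after selection of polyadenylated RNA, from male C57BL/6J mice operated on at 12 weeks of age, with 1 library per mouse and 4 mice per group. The study asked how dietary phosphate and protein act on arterial calcification when kidney function is reduced. 5/6 nephrectomy (5/6 Nx), a surgical model of chronic kidney disease, removes most of the kidney tissue in 2 operations. The diets began 2 weeks after surgery and lasted 30 days by the labels and 4 weeks by the study's text. Sham mice, which kept their kidneys, received the high-phosphate low-protein diet (2% phosphorus, 2.5% protein), as did the 5/6 Nx-HPi-Lp mice, so by the labels these groups differed only in the operation. The 5/6 Nx-HPi-Hp mice received 2% phosphorus with 18% protein. The 5/6 Nx-LPi-Lp mice received 0.3% phosphorus with 2.5% protein. The 3 nephrectomy groups are named HPi-Lp, HPi-Hp and LPi-Lp from here on, and all 4 groups shared the strain as their genotype.

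Striated muscle of heart and skeleton contracts through sarcomeres, in which myosin heavy and light chains pull on sarcomeric actin, the troponin complex switches the filament on when calcium arrives, and ryanodine receptors release that calcium from the sarcoplasmic reticulum. The wall of the aorta holds smooth muscle, which uses other myosin and actin genes and has no sarcomeres. Heart muscle adjoins the root of the aorta, and skeletal muscle such as the diaphragm lies close along its course, while cardiac muscle cells can also extend along the great vessels near the heart.

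Libraries held between 20795568 and 24204348 counts in the Sham group, 15013203 to 57276915 in the HPi-Lp group, 13659525 to 18186113 in the HPi-Hp group and 13738098 to 21547424 in the LPi-Lp group. Mitochondrially encoded genes took 4.18 to 6.34% of the counts in the Sham group and 9.5 to 29.04% in the nephrectomy groups. Levels below are FPKM, counts scaled by the authors for gene length and library size, so levels of different genes can be set side by side. The 6 smooth muscle markers Myh11, Acta2, Tagln, Cnn1, Lmod1 and Smtn were above 0 in every library, and their summed FPKM was 7876 to 9926 in the Sham group, 847.5 to 1955 in the HPi-Lp group, 2185 to 8730 in the HPi-Hp group and 2731 to 6554 in the LPi-Lp group. Smooth muscle RNA was thus found in all 16 libraries, at the lowest level in the HPi-Lp mice. These markers are not particular to the aorta, so they do not test the tissue label. In tissue RNA of this kind, fewer cells of a type and less RNA per cell cannot be told apart.

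Some libraries stood apart in striated muscle RNA. Where stated, results are given with and without them, and all other values include them. Replicate 2 of the LPi-Lp group had the highest level of 28 of the 33 heart genes listed outside the 10. Replicates 1 and 2 of the HPi-Hp group had the highest summed level of the atrial genes, and replicate 4 of the LPi-Lp group and replicate 1 of the Sham group the highest of the fast skeletal genes.

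Ordered by their median FPKM over the 16 libraries, the genes ran from Tcap at 267.2, Myl7 at 7.774, Tnnt2 at 5.023 and Actc1 at 4.113 to Myh6 at 1.312, Ryr2 at 1.148, Acta1 at 0.9367, Ckm at 0.5732, Adprhl1 at 0.1476 and Nppa at 0. Tcap was above every other of the 10 genes in 15 of 16 libraries, and the exception was replicate 2 of the LPi-Lp group, where Actc1 was higher. The ranges of all neighbours in this order overlapped.

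**Figure D1:**
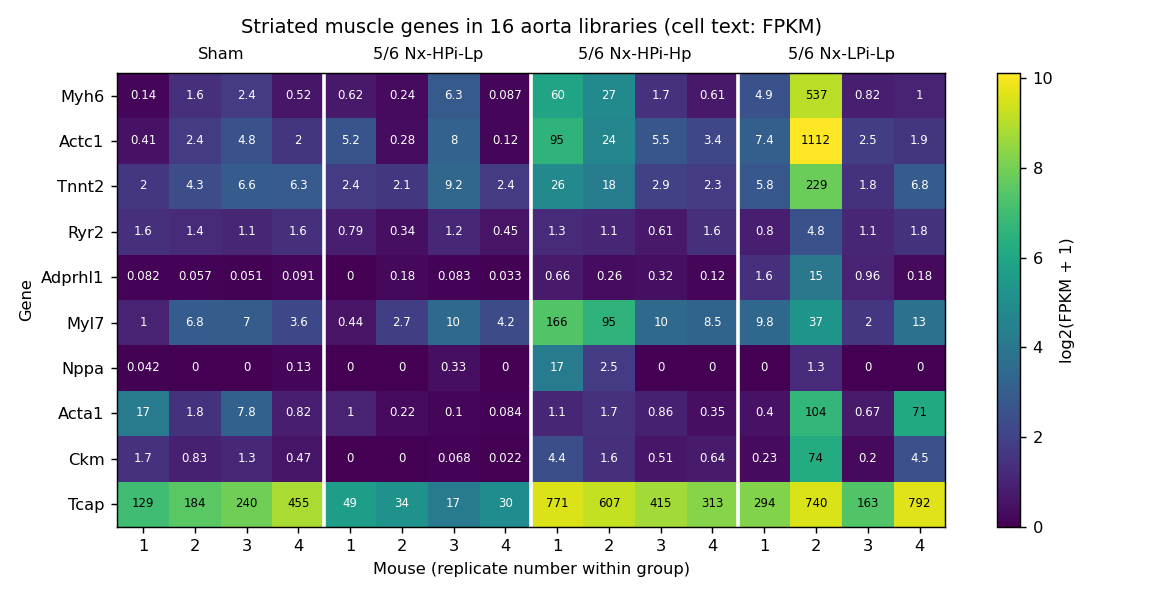
Heat map of the 10 genes (rows) in the 16 libraries (columns, 4 mice per group). Colour is log2(FPKM + 1) and the number in each cell is the deposited FPKM. The column of LPi-Lp replicate 2 is bright from Myh6 (537) to Actc1 (1112), the first 2 columns of HPi-Hp are bright for Myl7 (166 and 95), and the Tcap row is darkest in the 4 columns of HPi-Lp.

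The sequences before the transcription start are shown for the 3 of the 10 genes that carry a CArG box, the site that serum response factor recognises in muscle genes, because they are the skeletal actin and the heart actin, both highest in replicate 2 of the LPi-Lp group, and the atrial light chain, highest in replicate 1 of the HPi-Hp group. They are the 250 bases before the RefSeq start site on assembly GRCm38.p6, all read on the minus strand, with the CArG box in capitals. Acta1 lies at chr8:123894776-123895025, Actc1 at chr2:114052876-114053125 and Myl7 at chr11:5898783-5899032.
Acta1: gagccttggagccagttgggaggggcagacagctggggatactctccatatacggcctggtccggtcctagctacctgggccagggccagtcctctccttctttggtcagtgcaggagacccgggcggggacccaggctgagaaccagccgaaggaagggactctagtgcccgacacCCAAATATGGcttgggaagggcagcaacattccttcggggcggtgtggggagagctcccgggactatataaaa
Actc1: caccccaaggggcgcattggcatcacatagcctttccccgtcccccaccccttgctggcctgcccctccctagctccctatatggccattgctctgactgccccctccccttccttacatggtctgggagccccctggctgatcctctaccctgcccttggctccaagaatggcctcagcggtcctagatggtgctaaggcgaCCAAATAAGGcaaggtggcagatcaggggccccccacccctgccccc
Myl7: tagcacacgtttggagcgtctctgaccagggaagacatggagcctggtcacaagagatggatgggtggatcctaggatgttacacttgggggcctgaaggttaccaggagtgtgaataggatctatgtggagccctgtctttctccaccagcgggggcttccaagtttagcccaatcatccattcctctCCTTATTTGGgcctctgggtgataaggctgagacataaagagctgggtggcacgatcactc
The Actc1 window lies inside the longer gene model of the count table. The box began 73 bases before the start of Acta1, 47 before that of Actc1 and 61 before that of Myl7. RefSeq promoters of 300 bases (250 before and 50 after the start) were found for 9 of the 10 genes, with 10 windows because Tnnt2 had 2. Tcap had no entry. On either strand, the CArG box was in 3 of the 10 windows, against 1.63% of all 32851 promoters. The E-box CANNTG was in 10 of 10 windows against 72.3% of all promoters, and TATAAA was in 4 of 10 against 13.6%. The site of MEF2, another muscle factor, was in 0 of 10 windows against 3.19%. These matches describe letters in the windows and say nothing of binding.

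The genes of the heart muscle filaments were highest in replicate 2 of the LPi-Lp group. Myh6, the alpha myosin heavy chain of atria and of the adult mouse ventricle (chr14:54941921-54966927, minus strand), was at 0.142, 1.61, 2.44 and 0.518 FPKM in the Sham mice and at 0.615, 0.24, 6.3 and 0.0867 FPKM in the HPi-Lp mice. It was at 59.8, 26.7, 1.69 and 0.608 FPKM in the HPi-Hp mice and at 4.88, 537, 0.821 and 1.01 FPKM in the LPi-Lp mice. All 4 groups overlapped, and the high values belonged to replicates 1 and 2 of the HPi-Hp group and replicate 2 of the LPi-Lp group. The last library alone held 83.2% of the Myh6 signal summed over the 16 libraries. Of the 50-base stretches in Myh6 transcripts, 20.2% also occur in Myh7, the beta heavy chain, so reads could be shared, and the treatment of reads that match several genes is not given in the sources used here. Myh7 itself reached 7.62 FPKM in replicate 2 of the LPi-Lp group and was at most 0.409 FPKM in the other 15 libraries. Myh6 was 70.4 times Myh7 in FPKM in that library, 205 and 301 times in replicates 1 and 2 of the HPi-Hp group.

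Actc1, the alpha actin of the heart (chr2:114047282-114053548, minus strand), followed the same libraries. It was at 0.409, 2.35, 4.81 and 1.99 FPKM in the Sham mice and at 5.24, 0.277, 8.01 and 0.12 FPKM in the HPi-Lp mice. It was at 94.5, 24.3, 5.54 and 3.41 FPKM in the HPi-Hp mice and at 7.36, 1112, 2.55 and 1.92 FPKM in the LPi-Lp mice. The groups overlapped, and 87.1% of the summed signal came from replicate 2 of the LPi-Lp group, where Actc1 was the highest of the 10 genes. Acta2, the smooth muscle actin of the same family, was at 2289 FPKM in that library, above Actc1.

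Tnnt2, the cardiac subunit by which troponin binds tropomyosin (chr1:135836354-135852260, plus strand), was measured above 1 FPKM throughout. It was at 2.03, 4.29, 6.64 and 6.3 FPKM in the Sham mice, at 2.35, 2.13, 9.18 and 2.41 FPKM in the HPi-Lp mice, at 26.2, 18.1, 2.89 and 2.34 FPKM in the HPi-Hp mice and at 5.75, 229, 1.81 and 6.77 FPKM in the LPi-Lp mice. The lowest of the 16 values was 1.81 FPKM, so Tnnt2 was detected in every aorta, and the same 3 libraries were again the highest.

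Ryr2, the ryanodine receptor of the heart, which smooth muscle can also express (chr13:11553102-12106945, minus strand), varied least. It was at 1.58, 1.37, 1.1 and 1.65 FPKM in the Sham mice and at 0.793, 0.343, 1.16 and 0.445 FPKM in the HPi-Lp mice. It was at 1.31, 1.13, 0.609 and 1.6 FPKM in the HPi-Hp mice and at 0.798, 4.82, 1.12 and 1.8 FPKM in the LPi-Lp mice. Replicate 2 of the LPi-Lp group was the highest here too but held 21.8% of the summed signal, and 3 of the 4 HPi-Lp mice lay below every Sham mouse. The smooth muscle markers were lowest in the HPi-Lp group as a whole, at a sum of 1955, 848.2, 1754 and 847.5 FPKM in replicates 1 to 4, and the part of those markers in the Ryr2 level was not tested.

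Adprhl1 encodes a heart-enriched protein related to ADP-ribosylhydrolases (chr8:13221663-13254162, minus strand). It was at 0.0816, 0.0571, 0.0514 and 0.0915 FPKM in the Sham mice and at 0, 0.177, 0.0831 and 0.0332 FPKM in the HPi-Lp mice. It was at 0.657, 0.261, 0.32 and 0.118 FPKM in the HPi-Hp mice and at 1.6, 14.9, 0.956 and 0.185 FPKM in the LPi-Lp mice. Every mouse of the latter 2 groups was above every Sham mouse in FPKM, but some counts were low. Replicate 4 of the HPi-Hp group had 13 counts, and the Sham mice had 13, 8, 7 and 14. Unlike Myh6 and Actc1, Adprhl1 was also higher in replicates 1 and 3 of the LPi-Lp group than in any library outside that group. The 4 brown fat markers Ucp1, Cidea, Elovl3 and Dio2 summed to 188.9 to 394.3 FPKM in the Sham group, 356.4 to 1139 in the HPi-Lp group, 446 to 1581 in the HPi-Hp group and 726.3 to 3015 in the LPi-Lp group. In replicates 1 to 4 of the LPi-Lp group their sum was 3015, 726.3, 1868 and 1666 FPKM. It was lowest in replicate 2, where Adprhl1 was highest, while replicates 1, 3 and 4 had the same order for both. In the HPi-Hp group replicates 1 and 3 had the higher values of both. In the HPi-Lp group Adprhl1 was highest in replicate 2 and the sum in replicate 3, and in the Sham group both were highest in replicate 4. The part of fat tissue in the Adprhl1 level was not tested.

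The atrial genes singled out other libraries. Myl7, the regulatory light chain of the atria (chr11:5896637-5898782, minus strand), was at 0.997, 6.8, 7 and 3.63 FPKM in the Sham mice and at 0.438, 2.67, 10.1 and 4.17 FPKM in the HPi-Lp mice. It was at 166, 94.8, 10.2 and 8.55 FPKM in the HPi-Hp mice and at 9.8, 36.5, 2 and 12.5 FPKM in the LPi-Lp mice. All 4 HPi-Hp mice were above all 4 Sham mice, and replicates 1 and 2 were far above the other pair of their group. Replicate 1 held 44.7% of the summed signal.

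Nppa, the precursor of atrial natriuretic peptide (chr4:148000722-148002079, plus strand), was nearly absent elsewhere. It had 277 and 25 counts in replicates 1 and 2 of the HPi-Hp group (17.1 and 2.45 FPKM) and 0 in the other 2. It had 1, 0, 0 and 3 counts in the Sham mice, 0, 0, 13 and 0 in the HPi-Lp mice and 0, 18, 0 and 0 in the LPi-Lp mice. In the 10 libraries at 0, a count of 0 allows up to 0.0621 to 0.27 FPKM, taking 3 counts as the floor and covering counting error only. Nppa was too low to pass the count filter in any comparison and has no fitted fold change. An antisense gene, Gm13054, overlaps it with at most 7 counts.

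The ventricular light chain Myl2, which is not one of the 10 genes, set replicate 2 of the LPi-Lp group apart. It was at 797 FPKM in replicate 2 of the LPi-Lp group and at 3.04 and 2.13 FPKM in replicates 1 and 2 of the HPi-Hp group. Myl7 was 0.0458 times Myl2 in the first library and 54.5 and 44.5 times Myl2 in the other 2. In the first library the light chain of the ventricle exceeded that of the atria, and in every other library Myl7 was above Myl2. The ratio was as high outside the latter pair, at 52.3 in replicate 4 of the HPi-Hp group and 185 in replicate 4 of the Sham group. Myl2 was at 0.1633 and 0.01962 FPKM in those libraries. The order of the 2 light chains therefore marks replicate 2 of the LPi-Lp group and not the pair.

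**Figure D2:**
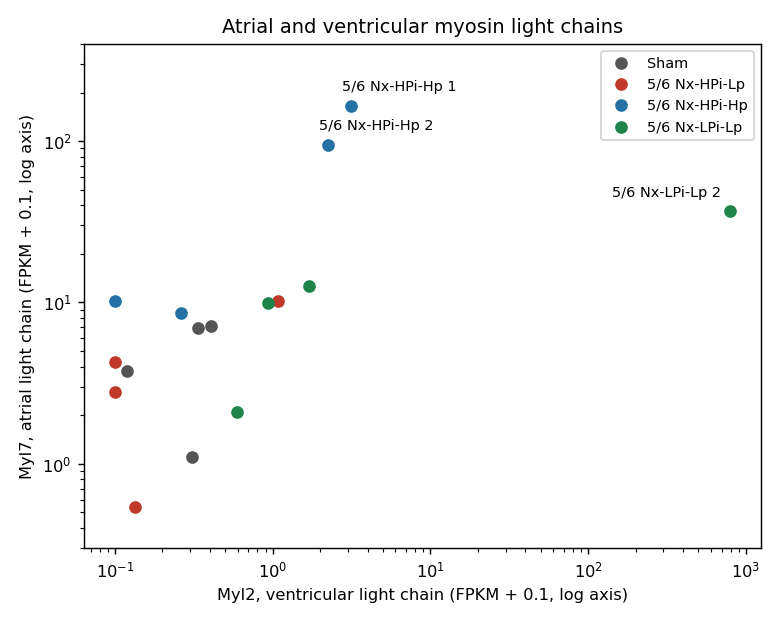
Myl7 (atrial light chain, vertical) against Myl2 (ventricular light chain, horizontal) in the 16 libraries, both as FPKM + 0.1 on log axes, coloured by group. Replicate 2 of LPi-Lp lies far right with Myl2 at 797, replicates 1 and 2 of HPi-Hp lie at the top with Myl7 at 166 and 94.8, and the other 13 libraries have Myl7 of at most 12.5.

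The genes that skeletal muscle and heart share were spread differently. Acta1, the alpha actin of skeletal muscle (chr8:123891769-123894751, minus strand), was at 17.4, 1.77, 7.76 and 0.822 FPKM in the Sham mice and at 1.01, 0.221, 0.101 and 0.0843 FPKM in the HPi-Lp mice. It was at 1.11, 1.71, 0.863 and 0.346 FPKM in the HPi-Hp mice and at 0.398, 104, 0.671 and 70.5 FPKM in the LPi-Lp mice. High values were thus found in replicates 2 and 4 of the LPi-Lp group and in replicates 1 and 3 of the Sham group, and the groups overlapped. Actc1 was 10.7 times Acta1 in FPKM in replicate 2 of the LPi-Lp group, but 0.0272 times in replicate 4 and 0.0234 times in replicate 1 of the Sham group. The last 2 libraries were the ones with most RNA of fast skeletal fibres.

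Ckm, the muscle creatine kinase (chr7:19404776-19422841, plus strand), was at 1.73, 0.832, 1.27 and 0.473 FPKM in the Sham mice. It had 0, 0, 9 and 1 counts in the HPi-Lp mice, which is at most 0.0683 FPKM and below every other library of the series. It was at 4.4, 1.6, 0.509 and 0.638 FPKM in the HPi-Hp mice and at 0.229, 74.3, 0.202 and 4.51 FPKM in the LPi-Lp mice. Replicate 2 of the LPi-Lp group held 81.4% of the summed signal, and the antisense gene A930016O22Rik overlaps Ckm with at most 21 counts.

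Tcap, or telethonin, which caps titin at the Z-disc (chr11:98383811-98384953, plus strand), was by far the most abundant of the 10 in most libraries. It was at 129, 184, 240.0 and 455 FPKM in the Sham mice and at 49.5, 34.3, 16.8 and 29.7 FPKM in the HPi-Lp mice. It was at 771, 607, 415 and 313 FPKM in the HPi-Hp mice and at 294, 740, 163 and 792 FPKM in the LPi-Lp mice. As for Ckm, all 4 HPi-Lp mice lay below all 12 other mice, but no single library carried Tcap, since the top one held 15.3% of the summed signal. The mean was 251.9 ± 142.6 FPKM in the Sham group, 32.57 ± 13.47 in the HPi-Lp group, 526.6 ± 203.7 in the HPi-Hp group and 497.4 ± 315.5 in the LPi-Lp group (SD, n = 4). Titin itself (Ttn) was at most 3 FPKM in any library, and at most 0.252 outside replicate 2 of the LPi-Lp group.

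**Figure D3:**
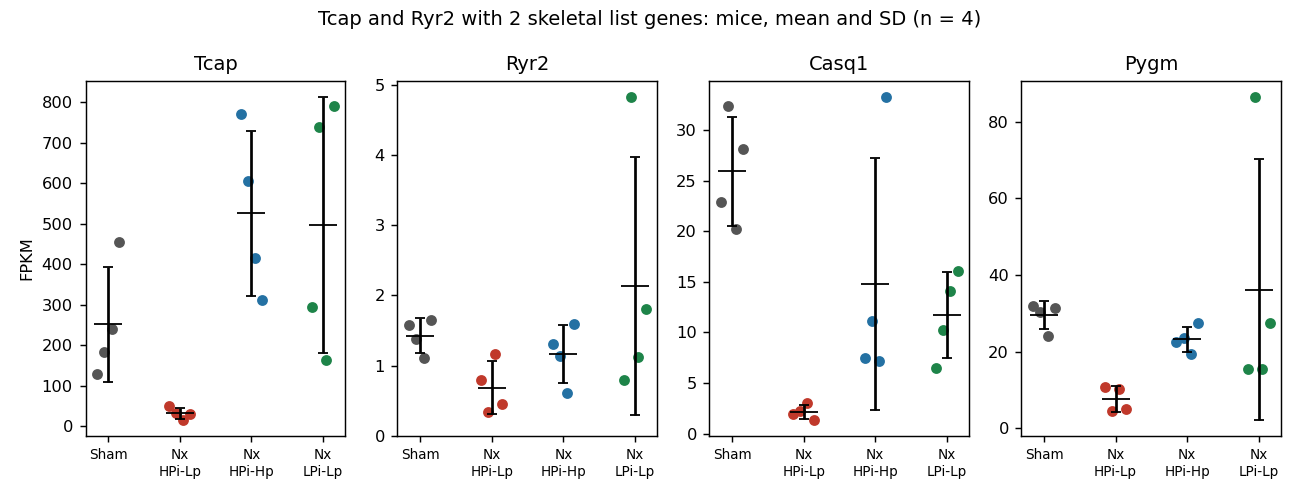
FPKM of Tcap and Ryr2 and of Casq1 and Pygm from the skeletal muscle list, for each mouse (points), with the group mean and SD (n = 4). The 4 mice of HPi-Lp lie below every other mouse for Tcap, Casq1 and Pygm, and overlap the other groups for Ryr2.

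Genes most like 3 of the 10 were sought among the 13389 genes that averaged 50 counts or more. The measure was Pearson's r of log2(CPM + 1) over the 16 libraries. CPM are counts scaled to library size after TMM adjustment, and not to gene length. The points share libraries and depth, so the values only describe. Closest to Myh6 were Csrp3 (r = 0.964, Spearman's rho = 0.959), Tnnc1 (0.937, 0.85), Mybpc3 (0.93, 0.691), Mb (0.928, 0.847) and Mylk3 (0.925, 0.732). Without replicate 2 of the LPi-Lp group and replicate 1 of the HPi-Hp group, r was 0.94, 0.88, 0.828, 0.797 and 0.813. These are heart muscle genes, namely a Z-disc LIM protein, the slow and cardiac troponin C, the cardiac myosin-binding protein C, myoglobin and the cardiac myosin light chain kinase. Closest to Acta1 were 3425401B19Rik (r = 0.791, rho = 0.782), Mlf1 (0.788, 0.709), Actn3 (0.787, 0.597), Gm20712 (0.779, 0.706) and Apobec2 (0.747, 0.629), with Actn3 an actinin of fast fibres. Without replicates 2 and 4 of the LPi-Lp group, r was 0.599, 0.513, 0.725, 0.757 and 0.502.

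For Tcap, which was added to this search after its values were seen, the closest genes were Tfeb (r = 0.927, rho = 0.924), Ifrd2 (0.916, 0.841), Tns2 (0.911, 0.9), Krba1 (0.909, 0.868) and Dnajc4 (0.909, 0.797). None of the 5 was in the heart or skeletal muscle lists. Among the 10 genes, r was 0.97 for Myh6 with Actc1, 0.94 for Myh6 with Tnnt2, 0.83 for Myl7 with Nppa and 0.83 for Ckm with Acta1. It was 0.36 for Myh6 with Acta1 and 0.5 for Myh6 with Tcap.

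The other genes of striated muscle came from lists of 33 heart and 36 skeletal muscle genes, none of them among the 10. The 5 atrial and sinus node genes summed to 50.07 and 27.66 FPKM in replicates 1 and 2 of the HPi-Hp group and to 1.653 to 8.068 FPKM elsewhere. Of these, Sln, a sarcolipin that restrains the calcium pump, was at 21.4 and 10.4 FPKM in that pair, and Myl4, the atrial essential light chain, at 27.9 and 17.1 FPKM. Hcn4 and Shox2 were highest in the HPi-Lp group instead, at 0.571 FPKM in replicate 1 and 0.567 FPKM in replicate 4. Bmp10 was at 0 in all 16 libraries. The 4 ventricular genes Myl2, Myl3, Myh7 and Irx4 summed to 1411 FPKM in replicate 2 of the LPi-Lp group and to at most 7.662 FPKM in the other 15.

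The 13 fast fibre genes summed to 100.9 FPKM in replicate 4 of the LPi-Lp group, 63.6 FPKM in replicate 1 of the Sham group and 15.66 to 44.55 FPKM elsewhere. Myh4, the heavy chain of the fastest fibres, was at 4.43 and 2.77 FPKM in those 2 libraries and at most 0.293 FPKM elsewhere. Pvalb, the calcium buffer parvalbumin, was at 8.27 and 7.03 FPKM there and at most 0.974 FPKM elsewhere. The highest fast fibre sum elsewhere, 44.55 FPKM in replicate 4 of the HPi-Hp group, was mostly Casq1, at 33.2 FPKM. The myogenic factors Myod1, Myog, Myf5, Myf6 and Pax7 were each at most 0.149 FPKM in any library, and Tnnc2, the fast troponin C, was at 0 in 15 libraries. In replicate 2 of the LPi-Lp group, where Acta1 was also high, Myh4 and Pvalb were at 0.

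**Figure D4:**
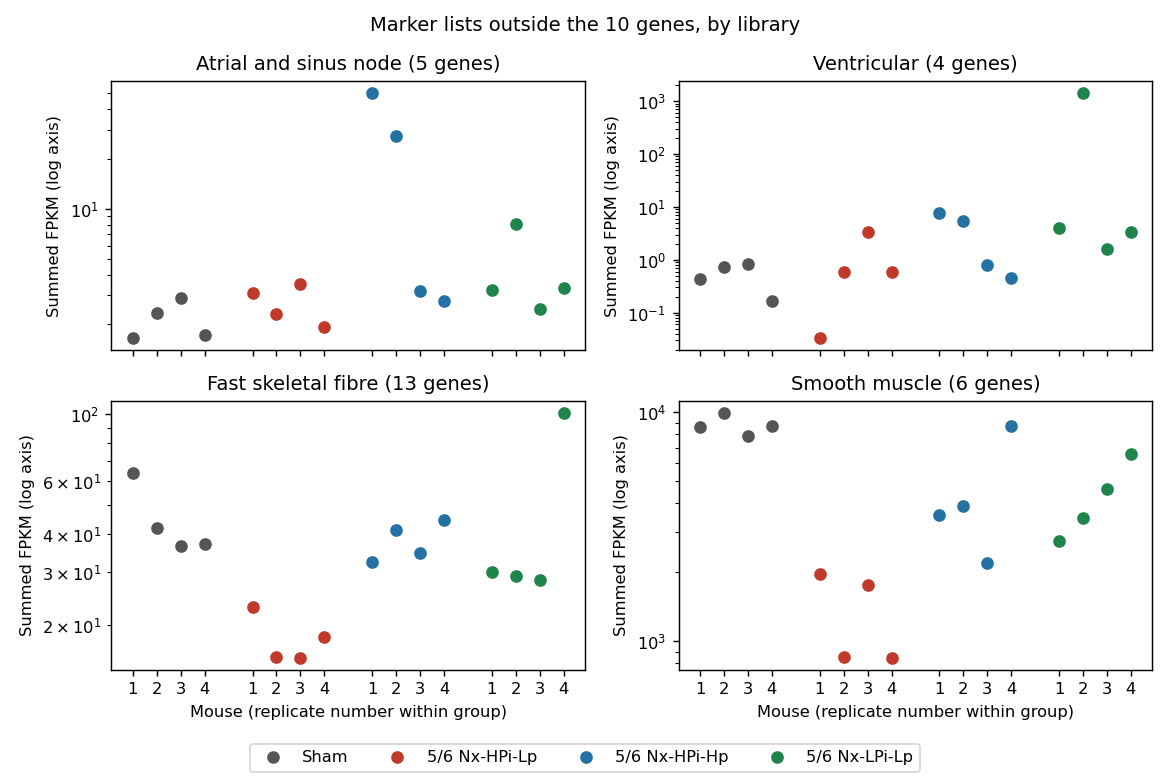
Summed FPKM (log axes) of 4 lists outside the 10 genes, for each mouse of each group. Atrial genes peak in replicates 1 and 2 of HPi-Hp (50.07 and 27.66), ventricular genes in replicate 2 of LPi-Lp (1411), fast fibre genes in replicate 4 of LPi-Lp (100.9) and replicate 1 of Sham (63.6), and smooth muscle genes are lowest in HPi-Lp (847.5 to 1955).

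Groups were compared in pairs with edgeR's quasi-likelihood test, and calls needed an adjusted p no higher than 0.05 together with a log2 fold change of 1 or more in either direction. Of the 10 genes, 9 were tested in every comparison. The heart and skeletal muscle lists were chosen with earlier results of these data known, so their calls are not independent support for the 10 genes. The median log2 fold change over all genes lay between -0.02 and 0.02 in the 6 comparisons. The labels give 1 animal per library, so the p-values measure the spread between mice.

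The operation was examined on the same diet. In HPi-Lp against Sham mice, 8 of 19 tested skeletal list genes and 6 of 22 heart list genes were called, 11 of them lower and 3 higher, and the difference between the lists was not tested. Over all 16513 genes tested, 15% were called higher and 7.18% lower. The median log2 fold change was -0.76 over the skeletal and -0.27 over the heart genes, against 0 over all genes. Casq1, the calcium store protein of skeletal muscle, was at 22.9, 32.4, 20.3 and 28.1 FPKM in the Sham mice and at 1.96, 2.27, 3.03 and 1.39 FPKM in the HPi-Lp mice. The groups did not overlap, and Casq1 fell by 3.58 on the log2 scale (SE 0.24, edgeR adjusted p = 1.5e-05). Its highest level of the 16 libraries was 33.2 FPKM in replicate 4 of the HPi-Hp group, not in the libraries richest in fast fibre RNA. The smooth muscle markers summed to 8730 FPKM in that library, the highest of its group. The part of smooth muscle in the Casq1 level was not tested. Chrna1, the muscle acetylcholine receptor subunit, fell by 3.38 (SE 0.83, edgeR adjusted p = 0.0089). It was low, at most 0.658 FPKM in any library, with 3 counts or fewer in 4 libraries. Mybpc2, the fast myosin-binding protein C, fell by 2.87 (SE 0.45, edgeR adjusted p = 0.000834). These 3 calls held without any single library.

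The 3 that rose in that comparison were Tnni3, Myl1 and Hcn4, named after their values were seen because they went the other way. Tnni3, the inhibitory subunit of cardiac troponin, had a log2 fold change of 1.99 (SE 0.28, edgeR adjusted p = 0.000444) and Myl1, a fast essential light chain, of 1.83 (SE 0.2, edgeR adjusted p = 0.000111). Hcn4, the pacemaker channel, had 2.4 (SE 0.78, edgeR adjusted p = 0.0317) and was at most 0.571 FPKM in any library. Its call was lost in 4 of the 8 fits that left out 1 library.

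The 10 genes were selected on these contrasts, so their fold changes are described without calls. The log2 fold changes were -2.99 (SE 0.43) for Tcap, -4.49 (SE 1.1) for Acta1, -1.08 (SE 0.34) for Ryr2 and -5.35 (SE 0.93) for Ckm, whose value depends on 10 counts over 4 libraries. Acta1 was at -3.41 without replicate 1 of the Sham group. Myh6, Myl7, Tnnt2, Actc1 and Adprhl1 lay between -0.28 and 0.62. The smooth muscle gene Acta2 was at 979.4 ± 445 FPKM in the HPi-Lp mice and 6710 ± 803.6 FPKM in the Sham mice (SD, n = 4), while the 4 white fat markers summed to 339.7 to 762.5 against 31.03 to 95.07 FPKM and the 4 sympathetic neuron markers to 11.28 to 552.8 against 0.3339 to 1.552 FPKM. The 4 endothelial markers overlapped, at 108.9 to 140.2 against 89.96 to 130.1 FPKM. The part of these shifts in the striated genes was not tested.

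More protein in the diet at the same phosphate was examined by setting HPi-Lp against HPi-Hp mice. Of the lists, 7 of 40 tested genes were lower in the HPi-Lp mice and 0 higher, against 3.11% lower and 5.01% higher among all 16198 genes. The unadjusted p was under 0.05 for 18 of the 40, and DESeq2 called 14 of 51 lower. List genes had a median of -1.37 on the log2 scale, against 0.01 over all genes, and of -0.15 without replicates 1 and 2 of the HPi-Hp group. Casq1 had -2.77 (SE 0.52, edgeR adjusted p = 0.0115), Myl4 had -2.72 (SE 0.74, edgeR adjusted p = 0.0384) and Actn2, the actinin of Z-discs, had -2.69 (SE 0.48, edgeR adjusted p = 0.00902). The call of Myl4 was lost in 6 of the 8 fits that left out 1 library, and those of Casq1 and Actn2 in 0. Without replicates 1 and 2 of the HPi-Hp group, Myl4 was at -0.42 (edgeR adjusted p = 0.52), while Casq1 was at -3.27 (0.0656) and Actn2 at -2.3 (0.105). That fit of 6 libraries called 0 list genes in edgeR, with 6 of 41 at an unadjusted p under 0.05, and 10 of all 17400 genes.

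In this comparison Tcap had a log2 fold change of -4.02 (SE 0.4) and -3.52 without those 2 libraries. Myl7 had -3.95 (SE 1.07) and -1.11 without them. Ckm was at 0.02264 ± 0.03222 FPKM against 1.787 ± 1.809 FPKM (SD, n = 4). Those 2 libraries were picked for their atrial RNA after the data were seen. Myl7 is an atrial gene, so its smaller value without them follows from that choice. Tcap kept most of its difference without them.

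Less phosphate at the same protein was examined by setting HPi-Lp against LPi-Lp mice. Here 11 of 45 list genes were lower in the HPi-Lp mice and 0 higher, against 3.98% lower and 7.9% higher among all 16253 genes. The median of the list was -2.69, against -0.02 over all genes, and -1.07 without replicate 2 of the LPi-Lp group. DESeq2, which gave an adjusted p for 26 list genes, called 7 lower. The named genes were Myl2 with -9.33 (SE 2.84, edgeR adjusted p = 0.0453), Mb with -7.76 (SE 2.31, edgeR adjusted p = 0.0423) and Myl3 with -7.39 (SE 2.3, edgeR adjusted p = 0.0493). Without replicate 2 of the LPi-Lp group they were at -1.87, -1.58 and -1.12, with edgeR adjusted p of 0.425, 0.247 and 0.496. Leaving out 1 library in turn, the calls of Myl2 and Myl3 were lost in 6 of 8 fits and that of Mb in 5, while those of Casq1 and Mybpc2 were lost in 0. Of the 11 calls, 5 were kept in that fit, for Hrc, Fabp3, Mybpc2, Casq1 and Pygm, and Mylpf was added. Pygm is the glycogen phosphorylase of muscle, Hrc a calcium-binding protein of the sarcoplasmic reticulum and Fabp3 the heart fatty acid binding protein.

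Among the 10 genes, Tcap had a log2 fold change of -3.94 (SE 0.55), and -3.72 without that library. Adprhl1 had -5.63 (SE 1.37), and -3.52 without it. Acta1 had -7.2 (SE 1.8), and -6.34 without it, when replicate 4 of the LPi-Lp group was still in the fit. Myh6 went from -6.19 to -0.3 and Actc1 from -6.34 to -0.22, so nearly all of their difference lay in 1 mouse.

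The HPi-Hp and LPi-Lp groups were each set against the Sham mice, which these comparisons share, although both operation and diet then differ. In HPi-Hp mice, 16 of 43 list genes were higher and 0 lower, 13 of them among 24 heart genes, against 9.41% higher and 2.75% lower among all 15882 genes. The median of the list was 1.05, against 0.02 over all genes, and -0.35 without replicates 1 and 2 of the HPi-Hp group. DESeq2 called 19 higher and 3 lower of 57. Sln rose by 4.62 (SE 1.34, edgeR adjusted p = 0.0287), Csrp3 by 4.02 (SE 1.21, edgeR adjusted p = 0.0322) and Mybpc3 by 3.87 (SE 1.18, edgeR adjusted p = 0.0339). Without replicates 1 and 2 they were at -0.4, 0.44 and -0.88, with edgeR adjusted p of 0.797, 0.794 and 0.268. Leaving out 1 library in turn, the call of Sln was lost in 5 of 8 fits and those of Csrp3 and Mybpc3 in 6. In the fit of 6 libraries edgeR called 0 of 49 list genes, with 11 at an unadjusted p under 0.05, and 6 of all 16821 genes.

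For the 10 genes in that comparison, with and without replicates 1 and 2, the log2 fold change was 4.25 and -0.06 for Myh6, 3.93 and 1.01 for Myl7, 3.76 and 0.89 for Actc1, and 2.25 and 1.57 for Adprhl1. Acta1 was at -2.83 with them and -3.6 without them, and at -1.81 when replicate 1 of the Sham group was left out instead. Tcap was at 1.06 (SE 0.4) and 0.52.

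In LPi-Lp mice, 20 of 47 list genes were higher than in Sham mice and 1, Casq1, was lower, against 8.79% and 2.08% of all 16071 genes. Heart genes made up 17 of the 20, of 27 tested. The median of the list was 2.02, against 0.02 over all genes, and 0.94 without replicate 2 of the LPi-Lp group. DESeq2 called 5 higher and 1 lower of 28. Myl2 rose by 10.05 (SE 2.75, edgeR adjusted p = 0.0214), Myl3 by 9.1 (SE 2.41, edgeR adjusted p = 0.019) and Mybpc3 by 7.86 (SE 2.28, edgeR adjusted p = 0.0271). Without replicate 2, Myl2 was at 2.36 (edgeR adjusted p = 0.0269) and Myl3 at 2.68 (0.0135), while Mybpc3 was at 1.57 (0.153). Leaving out 1 library in turn, Sham libraries included, the call of Myl2 was lost in 4 of 8 fits, that of Myl3 in 3 and that of Mybpc3 in 5. Of the 21 calls, 7 were kept without replicate 2 of the LPi-Lp group, for Myl2, Myl3, Tnni3, Tbx5, Fabp3, Myl1 and Casq1.

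For the 10 genes against the Sham mice, with and without replicate 2 of the LPi-Lp group, the log2 fold change was 6.89 and 0.93 for Myh6, 6.92 and 0.72 for Actc1, and 5.97 and 3.66 for Adprhl1. Tnnt2 went from 3.69 to 0 and Ckm from 4.23 to 0.66, while Tcap was at 1 (SE 0.53) and 0.74.

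**Figure D5:**
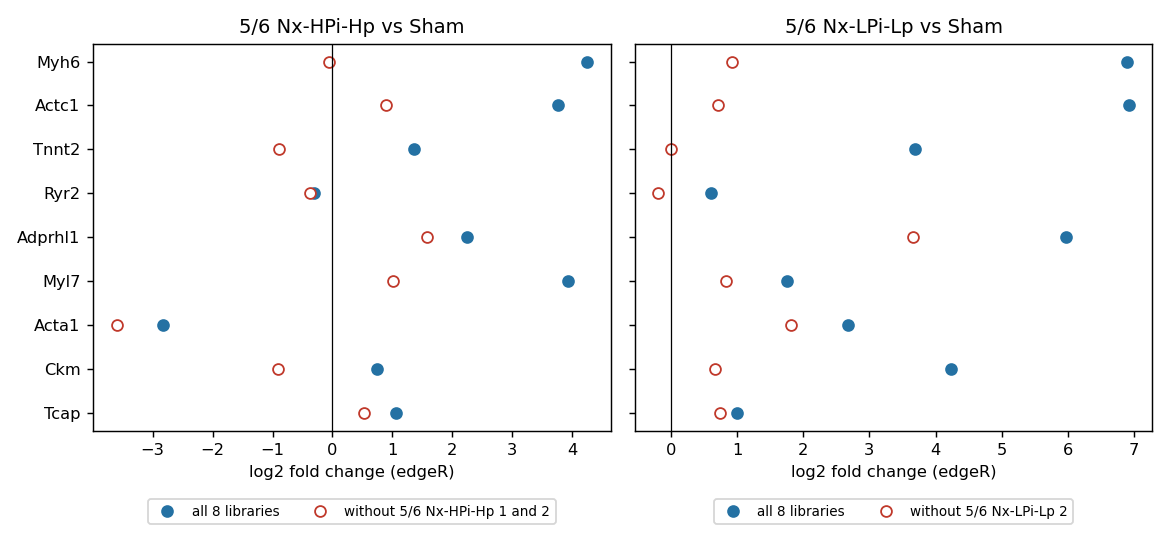
Log2 fold change (edgeR) against Sham of the 9 tested genes, in HPi-Hp mice (left) and LPi-Lp mice (right). Filled points are fits of all 8 libraries and open points are fits without the libraries richest in heart RNA, where Myh6 moves from 4.25 to -0.06 on the left and from 6.89 to 0.93 on the right, and Tcap stays between 0.52 and 1.06 in both.

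Between the HPi-Hp and LPi-Lp mice, edgeR called 0 of 15850 genes (0% in either direction), with 1420 at an unadjusted p under 0.05, and DESeq2 called 78 of 19569. Among the lists, 0 of 45 genes were called by edgeR and 0 of 27 by DESeq2, with 9 and 6 at an unadjusted p under 0.05. The 9 genes with a fitted value had log2 fold changes from -5.5 (SE 1.57) for Acta1 to 2.18 (SE 1.01) for Myl7. Without replicates 1 and 2 of the HPi-Hp group and replicate 2 of the LPi-Lp group, Acta1 was at -5.39 and Myl7 at 0.17. Tcap had 0.06 (SE 0.49), so its difference between these groups was smaller than its error.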

How the data were processed

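Aortic RNA of 16 mice (4 per group, groups as the labels give them) was sequenced. The authors mapped quality-filtered reads with HISAT2 to mm10, counted them with featureCounts (1.5.0-p3, per the submitters' processing notes) and deposited whole-number counts and FPKM for 54532 genes. The strand setting is not given in the sources used here. In the deposited FPKM, each library was already scaled by its DESeq2 size factor.

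The 10 genes and the lists were chosen with earlier results of these data known. Under R 4.3.3, edgeR 4.0.16 was run on the counts (filterByExpr, TMM scaling, quasi-likelihood test, the 8 libraries of each pair, Benjamini-Hochberg adjustment over all genes tested), after checks on simulated data. Named outside the 10 were, per comparison, the 3 called list genes with the largest absolute log2 fold change and a mean of at least 50 counts in a group, the 5 genes most correlated with Myh6 and with Acta1, and the relatives Myh7 and Acta2. Alternatives were RLE scaling, no count filter, DESeq2 1.42.0, limma 3.58.1 on log2(FPKM + 1) or log2(FPKM + 0.1) for genes above a mean of 0.5 FPKM, a replicate block, a joint fit of the 16 libraries, no mitochondrial genes and each library left out. Leaving out the libraries rich in heart or in fast skeletal RNA was added after seeing the data. Summed markers of smooth muscle, fat, sympathetic neurons and endothelium are given as ranges. Scripts ran in Python 3.11.15 with matplotlib 3.10.9. RefSeq promoters were matched by symbol.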

Additional observations from a re-analysis of the deposited data

Results flagged for a closer look

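In 92 groups of 4 mice (the 10 genes, the 11 named list genes, Myh7 and Acta2), the FPKM of 27 had a highest mouse far from the other 3 by Dixon's test, where chance flags about 1 in 20 groups. The 10 genes were chosen partly for such single libraries and the list genes for large fold changes, so this number describes them and is not read against chance. In replicate 2 of the LPi-Lp group this was so for 14 genes: Myh6 at 537, Nppa at 1.33, Tnnt2 at 229, Actc1 at 1112, Adprhl1 at 14.9, Ckm at 74.3, Actn2 at 99.6, Csrp3 at 89.4, Mb at 760.0, Mybpc3 at 148, Myl2 at 797, Myl3 at 604, Myl4 at 5.65 and Myh7 at 7.62 FPKM. The nearest other mouse of that group was at 4.88 for Myh6 and at 7.36 for Actc1.

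In replicate 3 of the HPi-Lp group, with 46499243 counts, it was so for 8 genes at much lower levels: Myh6 at 6.3, Nppa at 0.332, Tnnt2 at 9.18, Actn2 at 2.34, Csrp3 at 0.985, Mybpc3 at 1.01, Myl2 at 0.975 and Sln at 0.889 FPKM. Single genes stood apart elsewhere: Nppa at 17.1 in replicate 1 and Casq1 at 33.2 in replicate 4 of the HPi-Hp group, Acta1 at 1.01 in replicate 1 of the HPi-Lp group, and Actn2 at 4.25 in replicate 2 and Mb at 2.57 FPKM in replicate 3 of the Sham group.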

How the results depend on the processing

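The counts of called list genes were 14, 7, 11, 16, 21 and 0, for HPi-Lp against Sham, HPi-Lp against HPi-Hp, HPi-Lp against LPi-Lp, HPi-Hp against Sham, LPi-Lp against Sham and HPi-Hp against LPi-Lp. In this order they were 16, 14, 30, 22, 28 and 0 without the count filter, 17, 14, 7, 22, 6 and 0 with DESeq2, 7, 6, 3, 5, 3 and 0 with limma on log2(FPKM + 1), 10, 6, 4, 6, 3 and 0 on log2(FPKM + 0.1), and 9, 5, 29, 4, 23 and 0 with all 16 libraries in one fit. The cause was not tested, except that DESeq2 gave an adjusted p for 28 list genes where edgeR tested 47 in LPi-Lp against Sham. RLE scaling and leaving out mitochondrially encoded genes kept every count within 1.5 times. Leaving out 1 library in turn gave 9 to 16, 3 to 11, 2 to 16, 4 to 26, 4 to 27 and 0. Without the heart-rich libraries the last 5 were 0, 6, 0, 7 and 0, and without the 2 rich in fast skeletal RNA they were 9 (first comparison), 12, 6, 14 and 0 (last 4), with Myh6 in HPi-Hp against Sham at -0.06 in the former. Each Sham library left out took the 21 calls of LPi-Lp against Sham to 4 or 5.

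With the replicate block the counts were 12, 2, 3, 7, 5 and 0. The replicate numbers did not pair the mice: the correlation of deviations exceeded 0.1 in 5 of 24 same-numbered pairs (range -0.328 to 0.601), and 0 libraries correlated best with their own number in every group. Of the fold changes of the 10 genes under other settings, 842 moved by less than 1 SD between mice, 88 by more and 1 reversed. Uneven depth limits genes near the floor of 3 counts, such as Nppa and Ckm.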
